A study of Mus musculus with 4 samples.

Results

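The CXCR3 and CXCR6 chemokine axes were taken as 6 genes, the ligands Cxcl9, Cxcl10, Cxcl11 and Cxcl16 and the receptors Cxcr3 and Cxcr6, and were followed in single cells of subcutaneous Pan02 tumours. The genes were found by symbol, and 5 of the 6 had a row among the 32285 genes of each library. Cxcl11, annotated in mouse as a polymorphic pseudogene, was not analysed here. Pan02 is a pancreatic cancer line that grows in C57BL/6 mice. The hosts were female C57BL/6 mice aged 6 to 7 weeks, and treatment began once tumours measured about 50 mm3. There were 4 groups. The anti-PD-1 group received an antibody against the T cell checkpoint receptor PD-1 with IgG, the anti-LIF group an antibody against the cytokine LIF, the combo group both antibodies, and the control group IgG. The protocol gives 200 µg of anti-PD-1 and 25 mg/kg of IgG or anti-LIF per injection into the abdomen, 3 times weekly. Each group was 1 library made of 3 combined samples, so animals cannot be separated. No difference between groups could be tested, no p-value was computed, and the 3 comparisons with control share the control library. Intervals in brackets are 95% intervals that cover counting error only.

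CXCL9, CXCL10 and CXCL11 are secreted chemokines that cells make in response to interferon gamma, and CXCL10 also in response to type I interferon. They bind CXCR3, a receptor of activated T cells and NK cells, and draw these cells into inflamed tissue and tumours. CXCL16 is made as a membrane-anchored chemokine, mainly by macrophages and dendritic cells, and is released by metalloproteases. It binds CXCR6, a receptor of tissue-resident and effector T cells.

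In mm10, the 3 ligand genes of CXCR3 are neighbours on the minus strand of chromosome 5. Cxcl9 lies at chr5:92321347-92328079, Cxcl10 at chr5:92346638-92348889 and the Cxcl11 gene at chr5:92359544-92365485. Cxcl16 lies at chr11:70453983-70459984 on the minus strand, Cxcr6 at chr9:123806475-123811760 on the plus strand, and Cxcr3 at chrX:101731535-101734269 on the minus strand. The sequences below are the 250 bases upstream of the starts of Cxcl9 and Cxcl10, from RefSeq on GRCm38.p6, 5′ to 3′ along the minus strand, with motif matches in capitals. They are shown because the levels of these 2 neighbouring genes differed between the same cell classes in part together and in part apart.
Cxcl9, chr5:92328080-92328329: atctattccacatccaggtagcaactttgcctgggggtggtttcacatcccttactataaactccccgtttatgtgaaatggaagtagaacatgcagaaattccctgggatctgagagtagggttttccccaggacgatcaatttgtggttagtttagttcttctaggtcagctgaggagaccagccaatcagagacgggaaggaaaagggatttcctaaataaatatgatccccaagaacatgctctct
Cxcl10, chr5:92348890-92349139: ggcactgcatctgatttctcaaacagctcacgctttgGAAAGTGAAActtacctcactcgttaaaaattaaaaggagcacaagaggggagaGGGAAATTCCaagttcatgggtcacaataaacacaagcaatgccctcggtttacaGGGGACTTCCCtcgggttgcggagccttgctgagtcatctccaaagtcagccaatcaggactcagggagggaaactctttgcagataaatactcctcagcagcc
The search covered both strands for the interferon-stimulated response element (GAAANNGAAA), the gamma-activated site (TTCNNNGAA) and the NF-kB motif. The Cxcl10 window held the response element at -213 to -204 from the start and NF-kB matches at -159 to -150, at -104 to -95 and, overlapping the last, at -103 to -94. The Cxcl9 window held no match to these letters, and neither did those of Cxcr3 and Cxcr6. Response elements of other sequence were not searched for, so a window without a match is not shown to lack an interferon response element. Of 32851 mouse promoter windows of 250 bases, 2.98% held the response element, 7.02% the gamma-activated site and 7.25% the NF-kB motif.

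After filtering, 14392 anti-PD-1, 14014 anti-LIF, 16397 combo and 18640 control cells remained, with median UMI counts of 1731, 1674.5, 2288 and 2171 in that order. A UMI is a molecular tag that counts 1 captured RNA molecule. Cells were put into 16 classes by lists of 4 to 11 marker genes that hold none of the members, and a class name here means cells that carry those markers. The labels call the cells Pan02 cancer cells, but cells with the tumour markers made up only 19.9% in anti-PD-1, 14% in anti-LIF, 14% in combo and 32.1% in control. This class had 4.24 CPM of the leukocyte gene Ptprc, against 841 CPM in the T cell class. The mix of classes differed between libraries. Of kept cells, T cells were 11.9% in anti-PD-1, 8.44% in anti-LIF, 9.16% in combo and 36.5% in control. Macrophages were 28.3% in anti-PD-1, 29.1% in anti-LIF, 26.4% in combo and 2.66% in control, and fibroblasts 6.59% in anti-PD-1, 18.7% in anti-LIF, 17.8% in combo and 4.79% in control. T cells were thus most frequent in control, and macrophages in the treated libraries. Cells that carried markers of more than 1 class were left out as mixed and made up 6.59% to 10.3% of a library, and a further 6.23% to 12.4% carried too few markers for a class. Between 277 and 392 cell barcodes were shared by each pair of libraries.

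The shares of the CXCR3 ligand RNA that each cell class held differed between the libraries. In control, cancer cells held most of the UMIs of both genes, and their share was smaller in each treated library. Of all Cxcl9 UMIs, cancer cells held 15.4% in anti-PD-1, 5.47% in anti-LIF, 5.86% in combo and 56.2% in control. Macrophages held 57% in anti-PD-1, 26.2% in anti-LIF, 31.2% in combo and 9.25% in control, and fibroblasts 8.63% in anti-PD-1, 40% in anti-LIF, 34.8% in combo and 6.31% in control. Macrophages were thus the main class for Cxcl9 in anti-PD-1, fibroblasts in anti-LIF and combo, and cancer cells in control. Of all Cxcl10 UMIs, cancer cells held 34.2% in anti-PD-1, 6.23% in anti-LIF, 6.27% in combo and 64.4% in control, and fibroblasts 6.63% in anti-PD-1, 38% in anti-LIF, 44.7% in combo and 7.03% in control. The macrophage share of Cxcl10 was 29.4% in anti-PD-1, 21.6% in anti-LIF, 12.9% in combo and 3.09% in control. The endothelial share of Cxcl10 was 6.22% in anti-PD-1, 16.2% in anti-LIF, 14.2% in combo and 2.38% in control. Fibroblasts were the main class for Cxcl10 in anti-LIF and combo, and cancer cells in anti-PD-1 and control. For Cxcl16, macrophages held 74.9% in anti-PD-1, 66.6% in anti-LIF, 68% in combo and 20.8% in control, and cancer cells 4.02% in anti-PD-1, 2.5% in anti-LIF, 2.73% in combo and 29.9% in control. Mixed cells held 9.47% to 30% of a gene's UMIs across genes and libraries.

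**Figure D1:**
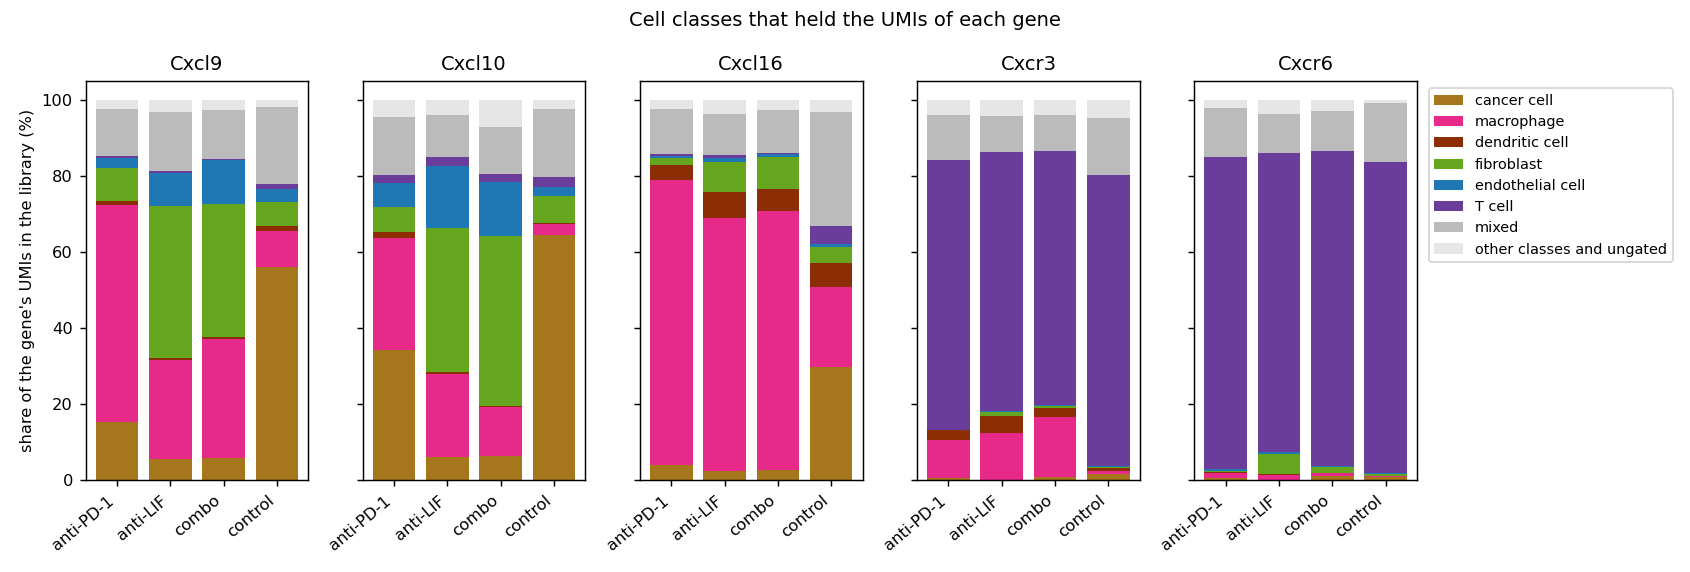
Share of each gene's UMIs (%) that each cell class held, by library (anti-PD-1, anti-LIF, combo, control). Cancer cells held 56.2% of Cxcl9 and 64.4% of Cxcl10 UMIs in control and less in each treated library, and T cells held 66.8% to 82.8% of the UMIs of both receptors.

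Cxcl9 RNA per class was lower in the treated libraries than in control in the cells of highest control level, the macrophages. In macrophages Cxcl9 was at 789 [774, 804] CPM in anti-PD-1, 282 [273, 291] CPM in anti-LIF, 262 [255, 269.7] CPM in combo and 1346 [1292, 1402] CPM in control, where CPM is UMIs of the gene per 1000000 UMIs of the class. No 2 of these intervals overlapped, and those of anti-LIF and combo lay close together. The log2 ratio over control was -0.77 [-0.83, -0.71] under anti-PD-1, -2.25 [-2.33, -2.18] under anti-LIF and -2.36 [-2.43, -2.29] under combo. Levels past 2-fold are called here, and 2 of the 3 comparisons were called lower. Among all genes with at least 20 UMIs in the 2 libraries together, the share called in macrophages was 7.17% of genes higher and 2.8% lower for anti-PD-1, 9.33% of genes higher and 5.28% lower for anti-LIF and 8.85% of genes higher and 6.2% lower for combo. The share of macrophages with a Cxcl9 UMI, with each cell thinned to 1000 UMIs and shallower cells left out, was 23.1% [21.7, 24.7] in anti-PD-1, 9.66% [8.63, 10.8] in anti-LIF, 7.64% [6.78, 8.57] in combo and 38.3% [33.8, 43] in control. Unthinned it was 30.8% in anti-PD-1, 13.4% in anti-LIF, 12.1% in combo and 50.9% in control, at median UMI counts of 2048 in anti-PD-1, 2077 in anti-LIF, 3414 in combo and 2733 in control. In T cells, which served as the background, the thinned share was 1.7% in anti-PD-1, 1.46% in anti-LIF, 1.24% in combo and 1.8% in control, at median depths of 1130.0 to 1485 UMIs.

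Of the macrophage subsets given here, Cxcl9 was highest in cells with C1q genes, a mark of mature tissue macrophages, and no Lyve1. The Lyve1 positive subset was set without regard to C1q. C1q positive, Lyve1 negative macrophages had 932 CPM in anti-PD-1, 355 CPM in anti-LIF, 345 CPM in combo and 1539 CPM in control. Macrophages with the monocyte genes Ly6c2 or Ccr2 and no C1q had 53.4 CPM (54 UMIs) in anti-PD-1, 69.3 CPM (97 UMIs) in anti-LIF, 92.9 CPM (142 UMIs) in combo and 82.3 CPM (10 UMIs) in control, so the counting interval of their control value was wide, at 39.4 to 151 CPM. Lyve1 positive macrophages, a perivascular type, had 88 CPM in anti-PD-1, 18.1 CPM in anti-LIF and 20.5 CPM in combo, and fewer than 50 of them were found in control. Within the C1q positive subset the log2 ratio of Cxcl9 over control was -0.72 [-0.79, -0.66] under anti-PD-1, -2.12 [-2.19, -2.04] under anti-LIF and -2.16 [-2.23, -2.08] under combo, close to the values of the whole class. Combo was near anti-LIF and well below anti-PD-1: the log2 ratio of combo over anti-LIF was -0.10 [-0.17, -0.042] in macrophages, and that of combo over anti-PD-1 was -1.59 [-1.64, -1.54].

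Cancer cells had less Cxcl9 RNA in each treated library. Their level was 107 [103, 111] CPM in anti-PD-1, 48 [44.6, 51.5] CPM in anti-LIF, 36.5 [34.2, 38.9] CPM in combo and 233 [229, 237] CPM in control, and no intervals overlapped. Over control the log2 ratio was -1.12 [-1.18, -1.06] under anti-PD-1, -2.28 [-2.39, -2.17] under anti-LIF and -2.67 [-2.77, -2.58] under combo, called lower in all 3 comparisons, where the called shares of all genes were 6.28% of genes higher and 3.48% lower for anti-PD-1, 11.3% of genes higher and 7.21% lower for anti-LIF and 8.97% of genes higher and 6.63% lower for combo. With cells of at most 10% mitochondrial UMIs the anti-PD-1 ratio was -0.79 and no longer called. Each of the 3 subsets of cancer cells was highest in control. Cells with the growth factor gene Ereg or the cytokine gene Il11 had 121 CPM in anti-PD-1, 79.9 CPM in anti-LIF, 29.7 CPM in combo and 231 CPM in control. Cells with the proliferin genes Prl2c2 or Prl2c3 had 15.7 CPM in anti-PD-1, 15.8 CPM in anti-LIF, 42.8 CPM in combo and 272 CPM in control, and the remaining cancer cells 97.5 CPM in anti-PD-1, 59.2 CPM in anti-LIF, 37.5 CPM in combo and 235 CPM in control. Summed RNA of the 8 fibroblast markers within the cancer cell class was 598 CPM in anti-PD-1, 247 CPM in anti-LIF, 367 CPM in combo and 893 CPM in control, with all 8 markers detected in every library, and its part in the result was not tested. Pan02 cells carry fibroblast markers such as Dpt and Pdgfra themselves, so this sum cannot be read as RNA from fibroblasts alone.

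Stromal and dendritic cells differed in their Cxcl9 levels. Endothelial cells had 511 [467, 558] CPM in anti-PD-1, 602 [568, 637] CPM in anti-LIF, 579 [553, 606] CPM in combo and 1036 [967, 1108] CPM in control, so that control was above every treated library. On the log2 scale the ratio to control was -1.02 [-1.18, -0.86] under anti-PD-1, -0.78 [-0.91, -0.65] under anti-LIF and -0.84 [-0.96, -0.72] under combo, of which only the first was called, beside called shares of 6.07% of genes higher and 2.86% lower for anti-PD-1, 7.77% of genes higher and 3.34% lower for anti-LIF and 7.54% of genes higher and 3.51% lower for combo. As a mean over cells the anti-PD-1 ratio was -0.69 and the combo ratio -1.41, so that the call passed to combo, which was also past 2-fold with classes from clusters, at -1.05. With cells of at most 10% mitochondrial UMIs the anti-PD-1 ratio was -0.93. The control cells were few, 227 against 396 to 1118 in the treated libraries. Fibroblasts had 362 [345, 380.2] CPM in anti-PD-1, 484 [472, 497] CPM in anti-LIF, 294 [287, 302] CPM in combo and 374 [356, 393] CPM in control, with no difference past 2-fold in any comparison. The subset with Pi16 or Clec3b, genes of adventitial fibroblasts, had 432 CPM in anti-PD-1, 360.5 CPM in anti-LIF, 274 CPM in combo and 148 CPM in control. Control was the lowest there, whereas it was the highest among Lrrc15 positive fibroblasts, the activated tumour type, which had 394 CPM in anti-PD-1, 486 CPM in anti-LIF, 329.8 CPM in combo and 518 CPM in control. In the Pi16 or Clec3b subset the log2 ratio over control was 1.55 [1.30, 1.80] under anti-PD-1, 1.29 [1.08, 1.50] under anti-LIF and 0.89 [0.69, 1.10] under combo. In dendritic cells Cxcl9 was at 344 [300.3, 392] CPM in anti-PD-1, 81.5 [62.8, 104] CPM in anti-LIF, 95.2 [78, 115] CPM in combo and 522 [470.2, 577] CPM in control, with log2 ratios of -0.60 [-0.85, -0.36] under anti-PD-1, -2.67 [-3.08, -2.29] under anti-LIF and -2.45 [-2.78, -2.14] under combo. Dendritic cells were called lower in anti-LIF and combo, beside called shares of 9.21% of genes higher and 3.91% lower for anti-PD-1, 10.7% of genes higher and 4.51% lower for anti-LIF and 10.1% of genes higher and 5.03% lower for combo. Without the 10 highest cells of each library the anti-PD-1 ratio was -1.05, past 2-fold too. The make-up of the dendritic class differed, with 54 conventional type 1 cells of 183 in anti-PD-1, 49 of 215 in anti-LIF, 55 of 249 in combo and 94 of 169 in control, and 71 mature migratory cells in anti-PD-1, 106 in anti-LIF, 120 in combo and 44 in control. Within conventional type 1 cells Cxcl9 was at 411 CPM (95 UMIs) in anti-PD-1, 136 CPM (48 UMIs) in combo and 419 CPM (191 UMIs) in control. The 8 macrophage markers in the dendritic class summed to 224 CPM in anti-PD-1, 186 CPM in anti-LIF, 201 CPM in combo and 48.8 CPM in control, with 6 to 8 of them detected in a library. The part of the make-up and of these markers was not tested.

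**Figure D2:**
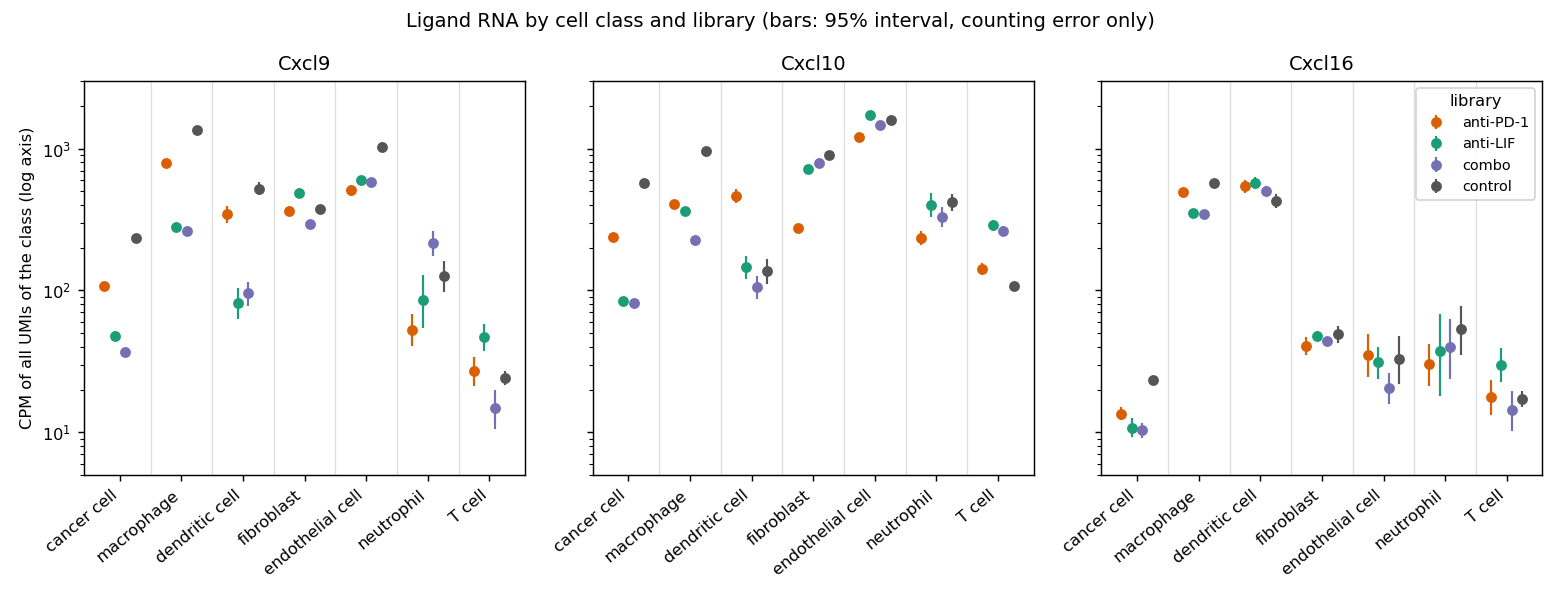
Level of Cxcl9, Cxcl10 and Cxcl16 (CPM of all UMIs of the class, log axis) in 7 cell classes, with 1 point per library (anti-PD-1, anti-LIF, combo, control) and bars for the 95% counting interval. In cancer cells and macrophages all 3 treated libraries lie below control for each of the 3 ligands, while Cxcl10 in endothelial cells lies between 1203 and 1736 CPM in all libraries and Cxcl10 in T cells lies above control in the treated libraries.

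Cxcl10 RNA was lower in cancer cells and macrophages of each treated library and higher in T cells of anti-LIF and combo. In fibroblasts and endothelial cells of those 2 libraries its level from summed UMIs was within 2-fold of control. In cancer cells Cxcl10 was at 237 [231, 243] CPM in anti-PD-1, 84.5 [80.1, 89.2] CPM in anti-LIF, 82.2 [78.7, 85.8] CPM in combo and 576 [569.6, 582] CPM in control. Control was the highest, and anti-LIF and combo overlapped. The corresponding log2 ratios over control were -1.28 [-1.32, -1.24] under anti-PD-1, -2.77 [-2.85, -2.69] under anti-LIF and -2.81 [-2.87, -2.75] under combo. A few cells held much of this RNA in the libraries of low level: of all Cxcl10 UMIs in cancer cells, the 10 cells with the most held 29.4% in anti-PD-1, 51.1% in anti-LIF, 57% in combo and 8.48% in control. Without these 10 cells of each library the ratios were -1.65, -3.66 and -3.89 for anti-PD-1, anti-LIF and combo. The share of cancer cells with a UMI at 1000 UMIs per cell was 9.66% [8.52, 10.9] in anti-PD-1, 4.05% [3.14, 5.15] in anti-LIF, 3.87% [3.04, 4.84] in combo and 20.3% [19.2, 21.4] in control, against a T cell share of 5.67% in anti-PD-1, 8.75% in anti-LIF, 9.53% in combo and 5.88% in control. In anti-LIF and combo the share in cancer cells was below that in T cells, but T cells themselves had more Cxcl10 RNA there than in control, so they set no clean background for this gene. The median UMI count of cancer cells was 5387 in anti-PD-1, 3545 in anti-LIF, 5271 in combo and 8994 in control.

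In macrophages Cxcl10 was at 405 [394, 415] CPM in anti-PD-1, 361 [350.2, 371] CPM in anti-LIF, 228 [221, 235] CPM in combo and 970.4 [925, 1018] CPM in control. All 3 treated libraries were below control, and combo was the lowest. Set over control, the log2 ratio was -1.26 [-1.34, -1.18] under anti-PD-1, -1.43 [-1.51, -1.35] under anti-LIF and -2.09 [-2.17, -2.01] under combo, and that of combo was -0.83 [-0.89, -0.77] over anti-PD-1 and -0.66 [-0.72, -0.60] over anti-LIF. Control was the highest in both of the subsets that follow, of which the second had only 54 cells in control. C1q positive, Lyve1 negative macrophages had 451 CPM in anti-PD-1, 387 CPM in anti-LIF, 271 CPM in combo and 1039 CPM in control, and the Ly6c2 or Ccr2 positive subset had 249 CPM in anti-PD-1, 268 CPM in anti-LIF, 178 CPM in combo and 921 CPM in control. Unlike Cxcl9, Cxcl10 was thus present in the monocyte-like subset at a level in the range of the class. The thinned share of macrophages with a Cxcl10 UMI was 13.3% [12.1, 14.5] in anti-PD-1, 12.4% [11.2, 13.6] in anti-LIF, 7.9% [7.02, 8.84] in combo and 29.6% [25.4, 34.1] in control.

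Endothelial cells had the highest Cxcl10 level of the classes with at least 50 cells in all 4 libraries, at 1203 [1135, 1275] CPM in anti-PD-1, 1736 [1679, 1795] CPM in anti-LIF, 1466 [1425, 1508] CPM in combo and 1582 [1497, 1670.4] CPM in control. None of the treated libraries differed from control by 2-fold, with log2 ratios of -0.39 [-0.51, -0.28] under anti-PD-1, 0.13 [0.042, 0.23] under anti-LIF and -0.11 [-0.20, -0.02] under combo. Across 6 alternatives the combo ratio ranged from -1.09 to 0.051 and was past 2-fold in 1 of them, so it depended on the processing. The thinned share of endothelial cells with a Cxcl10 UMI was 30.1% [24.5, 36.1] in anti-PD-1, 39.3% [35.3, 43.3] in anti-LIF, 26.6% [23.5, 29.9] in combo and 48.9% [41.4, 56.4] in control, an order that differs from that of the CPM values. Fibroblasts had 276 [261, 292] CPM in anti-PD-1, 713 [698, 729] CPM in anti-LIF, 797 [785, 810.0] CPM in combo and 899 [871, 928] CPM in control. Anti-PD-1 stood apart from the other libraries, with a log2 ratio of -1.70 [-1.80, -1.61] over control that was called lower beside called shares of 4.4% of genes higher and 2.79% lower for anti-PD-1, 4.81% of genes higher and 2.92% lower for anti-LIF and 4.73% of genes higher and 3.44% lower for combo. The ratio was -0.33 [-0.39, -0.28] in anti-LIF and -0.17 [-0.22, -0.12] in combo, and 1.53 [1.45, 1.61] for combo over anti-PD-1. As a mean over cells the anti-PD-1 ratio was -0.94, under 2-fold.

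Fibroblast subsets split on Cxcl10. In Pi16 or Clec3b positive fibroblasts its level was 486 CPM in anti-PD-1, 1362 CPM in anti-LIF, 1380.3 CPM in combo and 1241 CPM in control, and in Lrrc15 positive fibroblasts 161 CPM in anti-PD-1, 323 CPM in anti-LIF, 293 CPM in combo and 613 CPM in control. The adventitial subset was above the Lrrc15 positive subset in every library. Its log2 ratio over control was -1.35 [-1.52, -1.19] under anti-PD-1, 0.13 [0.053, 0.22] under anti-LIF and 0.15 [0.082, 0.22] under combo, while that of Lrrc15 positive cells was -1.93 [-2.11, -1.75] under anti-PD-1, -0.93 [-1.05, -0.80] under anti-LIF and -1.07 [-1.18, -0.95] under combo. The fibroblasts of anti-PD-1 held 108 Pi16 or Clec3b positive cells of 949, against 244 of 893 in control, and the remaining fibroblasts were lower in anti-PD-1 too, at 349 CPM in anti-PD-1, 815 CPM in anti-LIF, 762 CPM in combo and 787 CPM in control.

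In T cells, which are not a main source of CXCL10, the gene was at 142 [128, 157] CPM in anti-PD-1, 289 [264, 315] CPM in anti-LIF, 264 [245, 284] CPM in combo and 107 [102, 113] CPM in control. The log2 ratio over control was 0.40 [0.24, 0.56] under anti-PD-1, 1.43 [1.28, 1.57] under anti-LIF and 1.30 [1.17, 1.43] under combo, called higher in anti-LIF and combo beside called shares of 6.86% of genes higher and 3.04% lower for anti-PD-1, 9.33% of genes higher and 5.66% lower for anti-LIF and 8.53% of genes higher and 4.57% lower for combo. Of the T cell UMIs of Cxcl10, the 10 cells with the most held 48.8% in anti-PD-1, 49.5% in anti-LIF, 39.9% in combo and 21.3% in control, and without those cells the ratios were -0.21, 0.80 and 0.91 for anti-PD-1, anti-LIF and combo, so that neither call was kept. Summed marker RNA of other classes in the T cell class differed as well: the 8 macrophage markers were at 158 CPM in anti-PD-1, 117 CPM in anti-LIF, 113 CPM in combo and 20.7 CPM in control, with all 8 detected in each library. The 8 endothelial markers were at 33 CPM in anti-PD-1, 61 CPM in anti-LIF, 68.9 CPM in combo and 35.7 CPM in control and the 8 fibroblast markers at 64.2 CPM in anti-PD-1, 75.4 CPM in anti-LIF, 106 CPM in combo and 71.4 CPM in control. The part of such RNA in the T cell values was not tested.

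The smaller classes gave uneven values for Cxcl10. Dendritic cells had 467 [416, 522] CPM in anti-PD-1, 145 [119.8, 174] CPM in anti-LIF, 105 [86.9, 126] CPM in combo and 137 [111, 167] CPM in control, with anti-PD-1 above the others. Of these UMIs 10 cells held 93.1% in anti-PD-1, 85.1% in anti-LIF, 80.5% in combo and 84.7% in control. The log2 ratio of anti-PD-1 over control was 1.77, and 0.67 without the 10 highest cells of each library. The 8 fibroblast markers in the dendritic class summed to 147 CPM in anti-PD-1, 28 CPM in anti-LIF, 38.3 CPM in combo and 34.9 CPM in control, with 5 or 6 of them detected in a library, and their part was not tested. The thinned share of dendritic cells with a Cxcl10 UMI was 6.96% [3.53, 12.1] in anti-PD-1, 7.29% [4.04, 11.9] in anti-LIF, 5.04% [2.63, 8.64] in combo and 9.15% [5.21, 14.6] in control, in which all intervals overlapped. Cells with genes of gland epithelium had 467 CPM (125 UMIs) in anti-PD-1, 652 CPM (448 UMIs) in anti-LIF, 1401.5 CPM (1957 UMIs) in combo and 418 CPM (314 UMIs) in control, with a log2 ratio of 1.74 [1.57, 1.92] in combo beside called shares of 3.72% of genes higher and 9.61% lower for combo. Neutrophils had 235 CPM in anti-PD-1, 402 CPM in anti-LIF, 332 CPM in combo and 418 CPM in control, with control and anti-LIF overlapping in their intervals. NK cells had 77.9 CPM (5 UMIs) in anti-PD-1, 37.9 CPM (6 UMIs) in combo and 136 CPM (37 UMIs) in control, and anti-LIF held fewer than 50 of them.

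Cxcl16 was far higher per UMI in macrophages and dendritic cells than in cancer cells, fibroblasts and endothelial cells in every library, and its levels in the first pair of classes differed less between libraries than those of Cxcl9 and Cxcl10. In macrophages it was at 498 [486, 509.9] CPM in anti-PD-1, 352 [342, 362] CPM in anti-LIF, 348 [339.9, 357] CPM in combo and 574 [539, 611] CPM in control. Control was the highest, but no comparison was called, with log2 ratios of -0.21 [-0.30, -0.11] under anti-PD-1, -0.71 [-0.80, -0.60] under anti-LIF and -0.72 [-0.82, -0.62] under combo. The thinned share of macrophages with a Cxcl16 UMI was 36.1% [34.4, 37.8] in anti-PD-1, 26.8% [25.2, 28.4] in anti-LIF, 26.2% [24.7, 27.7] in combo and 37.4% [32.9, 42.1] in control, against 1.32% in anti-PD-1, 1.46% in anti-LIF, 0.971% in combo and 1% in control in T cells. C1q positive, Lyve1 negative macrophages had 559.8 CPM in anti-PD-1, 404 CPM in anti-LIF, 417 CPM in combo and 639 CPM in control. The Ly6c2 or Ccr2 positive subset had 198 CPM (200 UMIs) in anti-PD-1, 187 CPM (262 UMIs) in anti-LIF, 163 CPM (250 UMIs) in combo and 165 CPM (20 UMIs) in control, below the C1q positive subset in each library. Lyve1 positive macrophages were as low, with 199 CPM in anti-PD-1, 179 CPM in anti-LIF and 168 CPM in combo.

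In dendritic cells Cxcl16 was at 542 [487, 601] CPM in anti-PD-1, 575 [523, 630.2] CPM in anti-LIF, 502 [461, 545] CPM in combo and 425 [379, 476] CPM in control, with the treated libraries slightly above control and log2 ratios of 0.35 [0.12, 0.57] under anti-PD-1, 0.43 [0.22, 0.65] under anti-LIF and 0.24 [0.035, 0.44] under combo. Mature migratory dendritic cells, which carry Ccr7, had 714 CPM (186 UMIs) in anti-PD-1, 832 CPM (338 UMIs) in anti-LIF and 786 CPM (410 UMIs) in combo, and conventional type 1 dendritic cells 415 CPM (96 UMIs) in anti-PD-1 and 249 CPM (88 UMIs) in combo. The migratory subset was thus the higher of the pair. Fewer than 50 cells of the first subset were found in control, and of the second in anti-LIF. Cancer cells had 13.5 [12.1, 14.9] CPM in anti-PD-1, 10.7 [9.18, 12.5] CPM in anti-LIF, 10.3 [9.14, 11.7] CPM in combo and 23.5 [22.3, 24.7] CPM in control, of which control was the highest. Their log2 ratio over control was -0.80 [-0.97, -0.63] under anti-PD-1, -1.12 [-1.37, -0.90] under anti-LIF and -1.18 [-1.38, -0.99] under combo. As a mean over cells it was -0.56 under anti-LIF and -0.50 under combo, both under 2-fold. Fibroblasts stayed within 40.7 to 49.1 CPM, and endothelial cells within 20.5 to 35.2 CPM, in all 4 libraries.

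Both receptor genes were found mostly in T cells. Of all Cxcr3 UMIs, T cells held 70.9% in anti-PD-1, 68% in anti-LIF, 66.8% in combo and 76.6% in control. Of all Cxcr6 UMIs, they held 82.1% in anti-PD-1, 78.4% in anti-LIF, 82.8% in combo and 81.9% in control. Within the T cell class, Cxcr3 was higher in each treated library, at 104 [92, 116] CPM in anti-PD-1, 127 [112, 145] CPM in anti-LIF, 145 [131, 159.5] CPM in combo and 67.1 [62.8, 71.7] CPM in control. No treated interval overlapped that of control. Over control the log2 ratio was 0.63 [0.43, 0.82] under anti-PD-1, 0.93 [0.71, 1.14] under anti-LIF and 1.11 [0.93, 1.28] under combo, past 2-fold in combo alone, where it was 0.98 as a mean over cells and so not called. The level of combo over anti-LIF was 0.18 [-0.054, 0.42] and over anti-PD-1 0.48 [0.26, 0.70] on the log2 scale, both under 2-fold.

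CD8 T cells, the cytotoxic subset, had the largest Cxcr3 ratios of the 5 T cell subsets in each comparison. Their level was 109 [94.1, 126] CPM in anti-PD-1, 157 [129, 189.7] CPM in anti-LIF, 189 [163, 219] CPM in combo and 56.8 [52, 61.9] CPM in control, with control the lowest and anti-PD-1 next. On the log2 scale the ratio to control was 0.94 [0.69, 1.18] under anti-PD-1, 1.47 [1.15, 1.77] under anti-LIF and 1.74 [1.48, 1.98] under combo. With each cell thinned to 1000 UMIs, the share of CD8 T cells with a Cxcr3 UMI was 12.1% [9.76, 14.7] in anti-PD-1, 14.3% [10.4, 19] in anti-LIF, 18.2% [14.6, 22.2] in combo and 6.43% [5.66, 7.27] in control. In cancer cells, the background for the receptors, the thinned share was 0% in anti-PD-1, 0% in anti-LIF, 0% in combo and 0.0553% in control, at median depths of 3545 to 8994 UMIs, against 1178 to 1567 UMIs in CD8 T cells. Conventional CD4 T cells had 106 CPM (31 UMIs) in anti-PD-1, 131 CPM (44 UMIs) in anti-LIF, 185 CPM (81 UMIs) in combo and 82.2 CPM (73 UMIs) in control, with log2 ratios of 0.39 [-0.28, 1.0] under anti-PD-1, 0.68 [0.099, 1.23] under anti-LIF and 1.17 [0.69, 1.64] under combo. Regulatory T cells, which carry Foxp3, had 126 CPM (30 UMIs) in anti-PD-1, 94.8 CPM (27 UMIs) in anti-LIF, 98.7 CPM (63 UMIs) in combo and 119.5 CPM (61 UMIs) in control, and their intervals over control all included 0, at 0.09 [-0.60, 0.73] under anti-PD-1, -0.32 [-1.05, 0.34] under anti-LIF and -0.28 [-0.81, 0.26] under combo. Gamma delta T cells had 38.9 CPM (3 UMIs) in anti-PD-1, 33.2 CPM (4 UMIs) in anti-LIF, 30.1 CPM (4 UMIs) in combo and 80.7 CPM (22 UMIs) in control, too few UMIs to order the libraries.

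Outside T cells Cxcr3 was found at a low level in a part of the myeloid cells. Conventional type 1 dendritic cells, which cross-present antigen, had 43.3 CPM (10 UMIs) in anti-PD-1, 36.8 CPM (13 UMIs) in combo and 21.9 CPM (10 UMIs) in control, while mature migratory dendritic cells had 0 UMIs in each of the 3 treated libraries. Macrophages had 3.08 CPM (42 UMIs) in anti-PD-1, 3.28 CPM (42 UMIs) in anti-LIF, 4.96 CPM (95 UMIs) in combo and 4.61 CPM (8 UMIs) in control, and among them the Lyve1 positive subset had 8.8 CPM (6 UMIs) in anti-PD-1, 8.35 CPM (12 UMIs) in anti-LIF and 15.7 CPM (52 UMIs) in combo. NK cells, known carriers of CXCR3, had 15.6 CPM (1 UMI) in anti-PD-1, 12.6 CPM (2 UMIs) in combo and 22.1 CPM (6 UMIs) in control, with 86 or fewer cells in each treated library and 192 in control. Cancer cells had 0.0741 CPM (2 UMIs) in anti-PD-1, 0.232 CPM (6 UMIs) in combo and 0.328 CPM (20 UMIs) in control. In anti-LIF 0 of 1966 cancer cells had a Cxcr3 UMI, which allows a share of cells with a UMI of up to 0.153% and sets no limit on cells that express the gene.

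Cxcr6 in the T cell class differed less, at 426 [402, 450.5] CPM in anti-PD-1, 316 [291, 343] CPM in anti-LIF, 334 [313, 356] CPM in combo and 297 [288, 306] CPM in control. Anti-PD-1 was the highest, and the intervals of anti-LIF and control overlapped. The corresponding log2 ratios over control were 0.52 [0.43, 0.61] under anti-PD-1, 0.093 [-0.037, 0.22] under anti-LIF and 0.17 [0.067, 0.27] under combo, with no comparison called. Among CD8 T cells each treated library was above control, at 510.3 [478, 545] CPM in anti-PD-1, 423 [375, 474] CPM in anti-LIF, 503 [459.7, 550.1] CPM in combo and 335 [323, 347] CPM in control. Their log2 ratios over control were 0.61 [0.50, 0.72] under anti-PD-1, 0.34 [0.16, 0.51] under anti-LIF and 0.59 [0.45, 0.73] under combo, and the thinned share of CD8 T cells with a Cxcr6 UMI was 36.4% [32.8, 40] in anti-PD-1, 34.8% [29.2, 40.8] in anti-LIF, 33.8% [29.3, 38.5] in combo and 26.1% [24.7, 27.5] in control. In cancer cells the thinned share was 0.0406% in anti-PD-1, 0% in anti-LIF, 0.053% in combo and 0.147% in control. Conventional CD4 T cells had 481 CPM (140 UMIs) in anti-PD-1, 307 CPM (103 UMIs) in anti-LIF, 315 CPM (138 UMIs) in combo and 270.4 CPM (240 UMIs) in control, with anti-PD-1 the highest. Regulatory T cells were low in all libraries, with 71.5 CPM (17 UMIs) in anti-PD-1, 84.2 CPM (24 UMIs) in anti-LIF, 136 CPM (87 UMIs) in combo and 98 CPM (50 UMIs) in control.

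Gamma delta T cells had the largest Cxcr6 ratios of the T cell subsets. Their level was 609 CPM (47 UMIs) in anti-PD-1, 713 CPM (86 UMIs) in anti-LIF, 760.1 CPM (101 UMIs) in combo and 154 CPM (42 UMIs) in control, with all treated libraries above control. Set over control, the log2 ratio was 1.98 [1.35, 2.62] under anti-PD-1, 2.20 [1.66, 2.78] under anti-LIF and 2.29 [1.77, 2.86] under combo. The subset was small, with cell numbers of 56 in anti-PD-1, 94 in anti-LIF, 84 in combo and 175 in control. It was set by a UMI of Trdc or Cd163l1 with none of Cd8a, Cd8b1 or Cd4. Its Ccl5 was at 143 CPM in anti-PD-1, 58 CPM in anti-LIF, 444 CPM in combo and 1100 CPM in control. Its Itgae was at 194, 124, 120 and 121 CPM in the same order. The part of its make-up was not tested, and ratios of subsets were not recomputed under the class-level alternatives. The thinned share with a Cxcr6 UMI was 35.1% [22.9, 48.9] in anti-LIF, 42.4% [30.3, 55.2] in combo and 11.3% [6.45, 17.9] in control, and anti-PD-1 had fewer than 50 such cells deep enough. The make-up of the T cell class also differed. Of T cells, CD8 T cells were 63.3% in anti-PD-1, 38.4% in anti-LIF, 37.9% in combo and 65.3% in control. Regulatory T cells were 7.61% in anti-PD-1, 12.1% in anti-LIF, 17.2% in combo and 3.55% in control, and conventional CD4 T cells 8.14% in anti-PD-1, 18.2% in anti-LIF, 16.3% in combo and 7.34% in control. The part of this make-up in the levels of the whole T cell class was not tested.

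**Figure D3:**
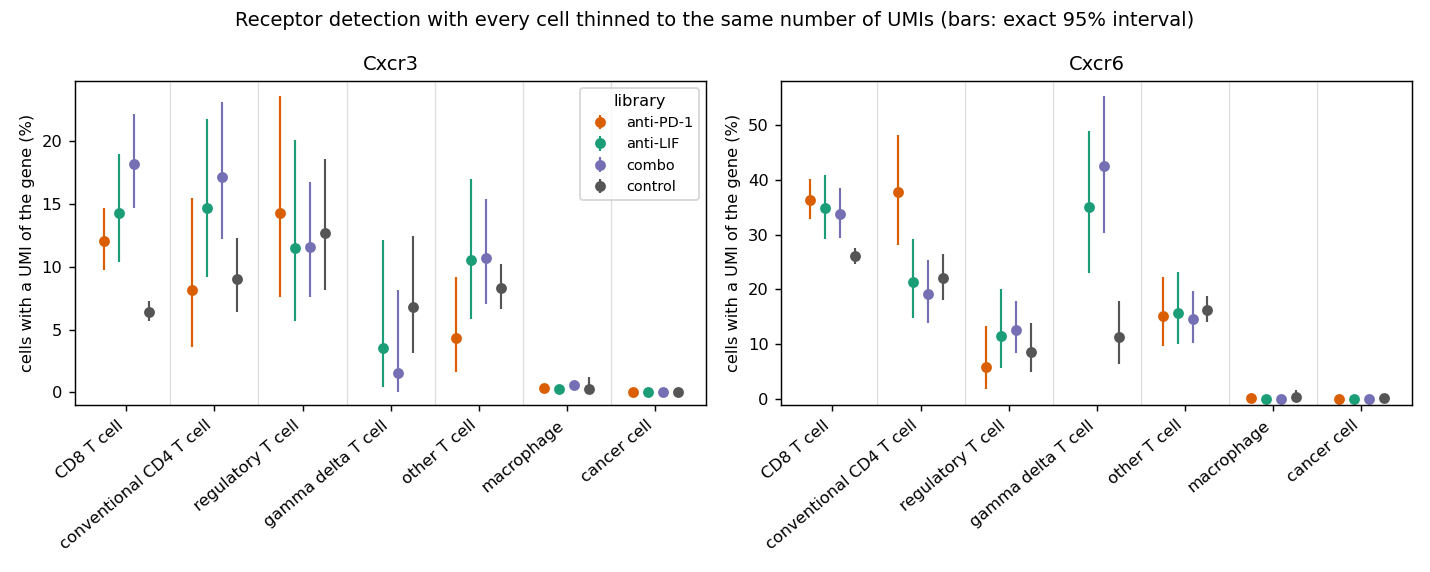
Share of cells (%) with a UMI of Cxcr3 or Cxcr6 after each cell was thinned to 1000 UMIs, in 5 T cell subsets, macrophages and cancer cells, with 1 point per library (anti-PD-1, anti-LIF, combo, control), bars for the exact 95% interval, and no point where fewer than 50 cells were deep enough. In CD8 T cells the Cxcr3 share is 12.1% to 18.2% in the treated libraries and 6.4% in control, and macrophages and cancer cells lie near 0 for both genes.

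In the same cells the members were found together to different degrees. Among macrophages thinned to 1000 UMIs, the share with a Cxcl10 UMI in cells with and without Cxcl9 was 22.8% against 10.4% in anti-PD-1, 24.8% against 11.1% in anti-LIF, 20.3% against 6.87% in combo and 26.3% against 31.6% in control. It was higher in cells with Cxcl9 in each treated library, with intervals that did not overlap, and lower in control, with intervals that did, and the difference between libraries was not tested. In 3 other classes the share was higher in cells with Cxcl9 in control too, as in every treated library. In control it was 36.7% in cancer cells with Cxcl9 against 17.8% in those without, 43.1% against 22.1% in fibroblasts and 69.7% against 34% in endothelial cells. Among CD8 T cells, Cxcr6 was detected in cells with and without Cxcr3 at shares of 35.3% against 36.5% in anti-PD-1, 33.3% against 35% in anti-LIF, 29.5% against 34.8% in combo and 21.8% against 26.4% in control. In no library was the share higher in cells with Cxcr3, and the intervals with and without it overlapped in all 4 libraries. Both kinds of share are set by detection at this depth and are given as a description.

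Over all kept cells of a library the members differed in another way than within classes. Cxcl16 was at 141 CPM in anti-PD-1, 125 CPM in anti-LIF, 109 CPM in combo and 46.2 CPM in control, and was called higher in every treated library, with log2 ratios of 1.61 [1.56, 1.66] under anti-PD-1, 1.44 [1.39, 1.50] under anti-LIF and 1.24 [1.19, 1.29] under combo. The called shares of all genes over all kept cells were 11.4% higher and 4.29% lower for anti-PD-1, 18.9% higher and 6% lower for anti-LIF, and 19.5% higher and 5.8% lower for combo. Cxcr6 was called lower in every treated library, at 22.7 CPM in anti-PD-1, 13.5 CPM in anti-LIF, 12.5 CPM in combo and 47 CPM in control, with log2 ratios of -1.05 [-1.13, -0.96] under anti-PD-1, -1.80 [-1.91, -1.69] under anti-LIF and -1.91 [-2.0, -1.81] under combo, of which that of anti-PD-1 was -0.94 as a mean over cells. The other members stayed within 2-fold. Cxcl9 was at 293 CPM in anti-PD-1, 256 CPM in anti-LIF, 179 CPM in combo and 244 CPM in control, Cxcl10 at 291 CPM in anti-PD-1, 396 CPM in anti-LIF, 377 CPM in combo and 526 CPM in control, and Cxcr3 at 6.4 CPM in anti-PD-1, 6.27 CPM in anti-LIF, 6.72 CPM in combo and 11.4 CPM in control. Their log2 ratios were 0.26 [0.24, 0.29] under anti-PD-1, 0.069 [0.039, 0.099] under anti-LIF and -0.44 [-0.47, -0.42] under combo for Cxcl9. They were -0.85 [-0.88, -0.83] under anti-PD-1, -0.41 [-0.43, -0.39] under anti-LIF and -0.48 [-0.50, -0.46] under combo for Cxcl10 and -0.83 [-0.99, -0.67] under anti-PD-1, -0.86 [-1.04, -0.68] under anti-LIF and -0.76 [-0.90, -0.62] under combo for Cxcr3. As a mean over cells the Cxcr3 ratios of anti-PD-1 and anti-LIF were -1.0 and -1.18, past 2-fold. With cells of at most 10% mitochondrial UMIs the Cxcr3 ratios were past 2-fold in all 3 comparisons, at -1.10, -1.60 and -1.44 for anti-PD-1, anti-LIF and combo. With cells of at most 10% mitochondrial UMIs, the Cxcl10 ratios of anti-LIF and combo were -0.028 and -0.012.

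Exchanging the class mix and the class levels separately split these ratios. With control levels in each class and the class mix of a treated library, the log2 ratio of Cxcl16 over control was 1.76 under anti-PD-1, 1.91 under anti-LIF and 1.80 under combo, and with the control mix and the treated levels it was -0.092 under anti-PD-1, -0.053 under anti-LIF and -0.41 under combo. The ratios over all cells were thus nearer to those with only the mix exchanged. For Cxcl9 the mix alone gave 1.0 under anti-PD-1, 1.19 under anti-LIF and 1.12 under combo, and the levels alone -0.77 under anti-PD-1, -0.95 under anti-LIF and -1.73 under combo, of opposite sign. For Cxcl10 the mix gave 0.31 under anti-PD-1, 0.49 under anti-LIF and 0.47 under combo and the levels -1.12 under anti-PD-1, -1.32 under anti-LIF and -1.41 under combo. Both receptors had negative values from the mix. For Cxcr3 the mix gave -0.70 under anti-PD-1, -0.91 under anti-LIF and -0.97 under combo and the levels 0.36 under anti-PD-1, 0.65 under anti-LIF and 0.85 under combo. For Cxcr6 the mix gave -1.03 under anti-PD-1, -1.31 under anti-LIF and -1.28 under combo and the levels 0.32 under anti-PD-1, -0.11 under anti-LIF and -0.05 under combo. Whether the class mix reflects the tumours or the dissociation of the combined samples cannot be told apart here.

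**Figure D4:**
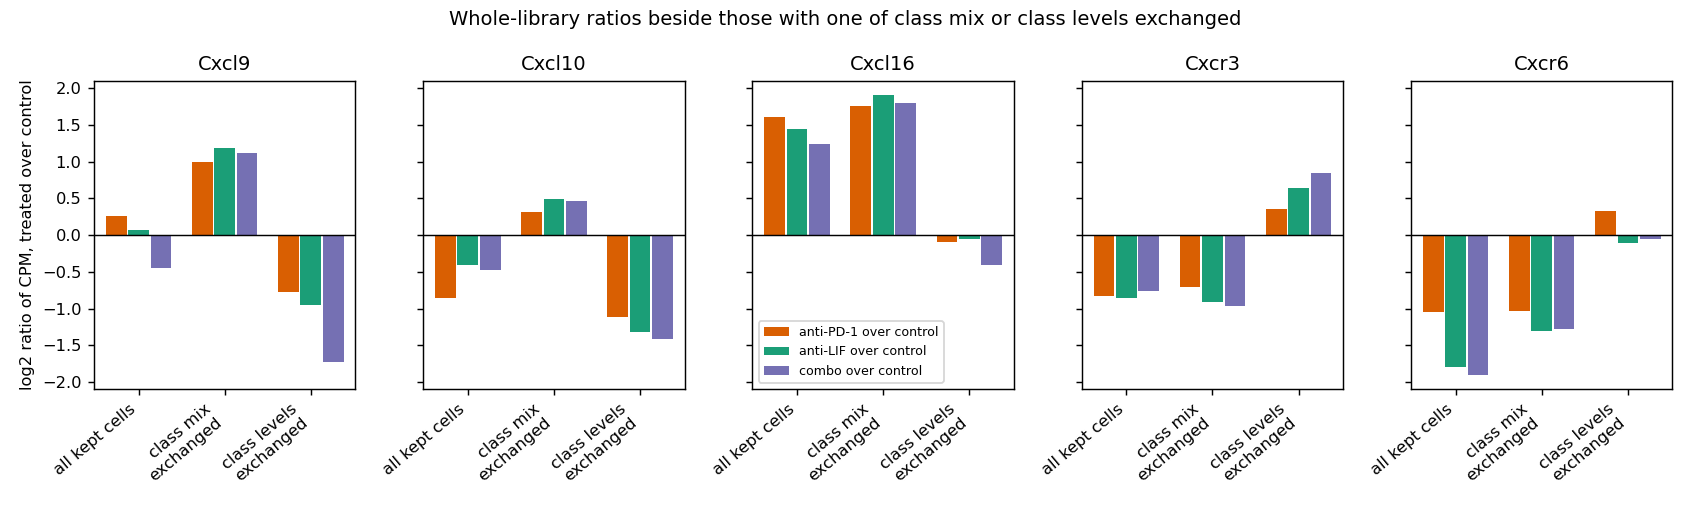
Log2 ratio of CPM of each treated library over control (anti-PD-1, anti-LIF, combo) for the 5 members, over all kept cells, with only the class mix exchanged, and with only the class levels exchanged. For Cxcl9 the class mix gives positive values of 1.00 to 1.19 and the class levels negative values of -0.77 to -1.73, and for Cxcr6 the class mix alone gives -1.03 to -1.31.

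Other target genes of interferon gamma were lower in cancer cells beside Cxcl9 and Cxcl10. The list held 14 genes of antigen presentation, guanylate-binding proteins and immunity-related GTPases. In cancer cells those called lower were 4 of 14 under anti-PD-1, 14 of 14 under anti-LIF and 14 of 14 under combo, and none was called higher. Of all genes in this class, 3.48%, 7.21% and 6.63% were called lower in the same order. The median log2 ratio of the list was -0.81 under anti-PD-1, -2.33 under anti-LIF and -2.54 under combo, against 0.18 under anti-PD-1, 0.22 under anti-LIF and 0.18 under combo over all genes. Cd274, the gene of PD-L1, was at 40.8 CPM in anti-PD-1, 11.3 CPM in anti-LIF, 9.76 CPM in combo and 89.8 CPM in control. The MHC class II gene H2-Ab1 was at 461 CPM in anti-PD-1, 126 CPM in anti-LIF, 138 CPM in combo and 1120.3 CPM in control, and the GTPase gene Gbp2 at 543 CPM in anti-PD-1, 172 CPM in anti-LIF, 156 CPM in combo and 1221 CPM in control. All 3 were lowest in anti-LIF and combo. Of the upstream list of 9 genes, 1 under anti-PD-1, 3 under anti-LIF and 3 under combo were called lower and none higher, beside the same shares of all genes. The transcription factor gene Irf1 was among those called lower in anti-LIF and combo, with log2 ratios of -0.72 under anti-PD-1, -1.68 under anti-LIF and -1.96 under combo.

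In macrophages those of the 14 called lower were 2 of 14 under anti-PD-1, 7 of 14 under anti-LIF and 8 of 14 under combo, with medians of -0.54 under anti-PD-1, -1.0 under anti-LIF and -1.18 under combo beside 0.14 under anti-PD-1, 0.10 under anti-LIF and 0.086 under combo over all genes. Of all genes in macrophages, 2.8%, 5.28% and 6.2% were called lower in the same order. Gbp2 was at 367 CPM in anti-PD-1, 209.9 CPM in anti-LIF, 188 CPM in combo and 788 CPM in control and Cd274 at 64 CPM in anti-PD-1, 61.5 CPM in anti-LIF, 55.1 CPM in combo and 180.5 CPM in control. In fibroblasts those called lower were 1 of 13 under anti-PD-1, 3 of 14 under anti-LIF and 5 of 14 under combo, and in endothelial cells 1 of 13 under anti-PD-1, 1 of 14 under anti-LIF and 1 of 14 under combo, the endothelial call being Cd274 in each comparison, beside the shares of all genes called lower in these classes, given above. The list medians were -0.57 under anti-PD-1, -0.64 under anti-LIF and -0.75 under combo in fibroblasts and -0.52 under anti-PD-1, -0.33 under anti-LIF and -0.70 under combo in endothelial cells, while the medians over all genes lay between 0.017 and 0.065. In T cells none was called lower, and those called higher were 1 of 14 under anti-PD-1, 1 of 14 under anti-LIF and 3 of 14 under combo, where 6.86%, 9.33% and 8.53% of all genes were called higher in the same order. Counts of 1 in 14 are near those shares. In dendritic cells, where Cxcl9 had ratios of -0.60, -2.67 and -2.45 in the same order, the list medians were 0.21, -0.22 and -0.18. Those over all genes were 0.082, 0.076 and 0.073. Called lower there were 0 of 14 under anti-PD-1, 2 of 13 under anti-LIF and 2 of 14 under combo. Called higher were 3 of 14, 1 of 13 and 1 of 14, beside the shares of all genes called in dendritic cells, given above. Summed T cell markers within the macrophage class were at 27.7 CPM in anti-PD-1, 17.9 CPM in anti-LIF, 12.3 CPM in combo and 119 CPM in control, with all 7 markers detected in each library, and their part was not tested. Of 8 genes of dissociation stress, 0 of 8 under anti-PD-1, 0 of 8 under anti-LIF and 1 of 8 under combo were called higher in macrophages and none lower, and in cancer cells 1 of 8 under anti-PD-1, 1 of 8 under anti-LIF and 1 of 8 under combo were called lower and none higher. Over all genes, 7.17%, 9.33% and 8.85% were called higher in macrophages and 3.48%, 7.21% and 6.63% lower in cancer cells. Counts of 0 or 1 in 8 are near such shares. In fibroblasts 2, 0 and 2 of 8 were called lower in the same order and none higher. In endothelial cells 2, 0 and 1 were called lower and 0, 1 and 1 higher. In dendritic cells 0, 3 and 1 were called lower and 1, 1 and 1 higher. In T cells 1, 0 and 0 were called lower and 0, 1 and 0 higher. Counts of 2 or 3 in 8 lie above the shares of all genes called lower, given above. The part of stress in the ligand levels was not tested.

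**Figure D5:**
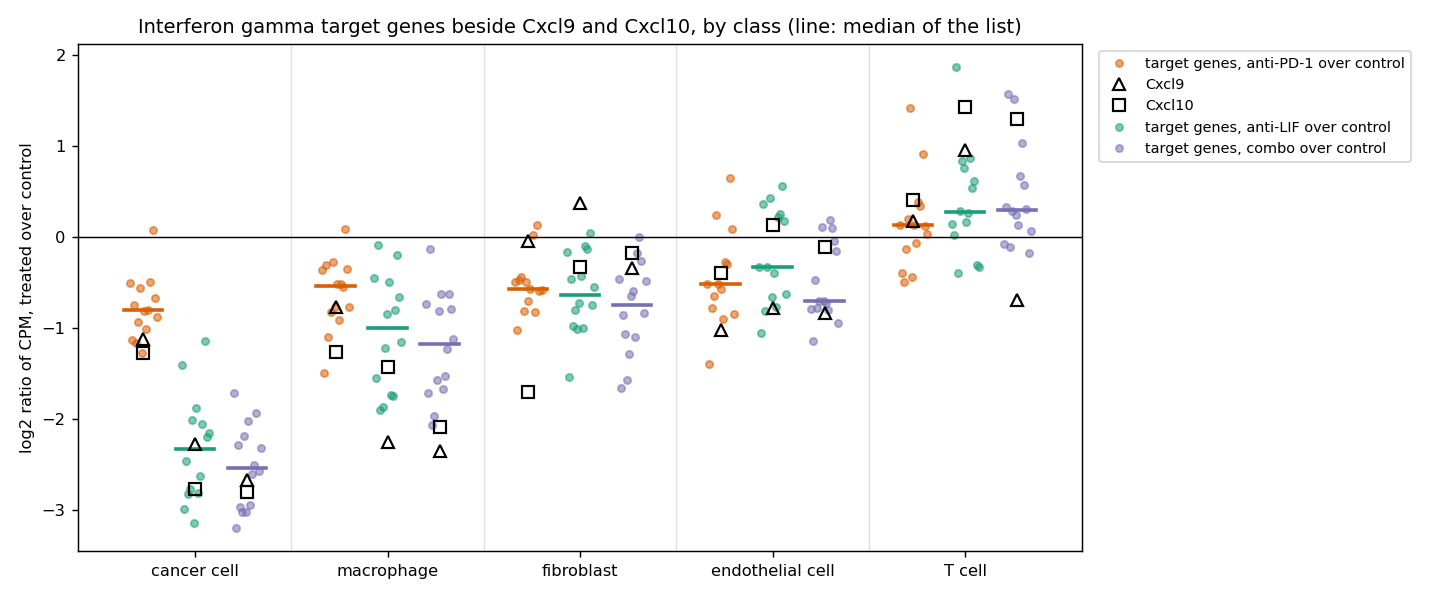
Log2 ratio of CPM over control of the 14 other interferon gamma target genes (dots, 1 per gene measured), with Cxcl9 (triangles), Cxcl10 (squares) and the list's median (line), in 5 classes for anti-PD-1, anti-LIF and combo. In cancer cells the list's median is -0.81, -2.33 and -2.54 in that order, and Cxcl10 in T cells of anti-LIF and combo lies above 1 on this scale.

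The gene of the inducer, Ifng, was within 2-fold of control per UMI of the T cell class. It was at 210.0 CPM in anti-PD-1, 176 CPM in anti-LIF, 104 CPM in combo and 199.5 CPM in control. Combo was the lowest, with log2 ratios of 0.075 under anti-PD-1, -0.18 under anti-LIF and -0.94 under combo. T cells held a smaller part of the UMIs of all kept cells in each treated library. That part was 4.379% in anti-PD-1, 3.345% in anti-LIF, 3.102% in combo and 12.98% in control. The T cell levels thus do not show that the libraries held similar amounts of Ifng RNA. Among CD8 T cells alone Ifng was at 249.8 CPM in anti-PD-1, 302 CPM in anti-LIF, 189 CPM in combo and 222 CPM in control, so combo was nearer to control than in the whole class. In conventional CD4 T cells it was at 254 CPM (74 UMIs) in anti-PD-1, 149 CPM (50 UMIs) in anti-LIF, 66.2 CPM (29 UMIs) in combo and 161 CPM (143 UMIs) in control. Regulatory T cells had 2 UMIs in anti-PD-1, 0 in anti-LIF, 0 in combo and 25 in control. Of the 9 upstream genes in T cells, 1 under anti-PD-1, 2 under anti-LIF and 2 under combo were called higher. Called lower were 1, 0 and 0 in the same order, beside the shares of all genes given below. Ifngr2, a chain of the interferon gamma receptor, was called higher in each comparison, at 25.5 CPM in anti-PD-1, 47.1 CPM in anti-LIF, 39.1 CPM in combo and 10.9 CPM in control. Socs1, an inhibitor of the pathway, was at 108 CPM in anti-PD-1, 156 CPM in anti-LIF, 155 CPM in combo and 69.4 CPM in control and was called higher in anti-LIF and combo. Of the other chemokine receptor genes of T and NK cells, 4 of 11 under anti-PD-1, 6 of 11 under anti-LIF and 7 of 11 under combo were called higher, and 1 of 11 under anti-PD-1, 1 of 11 under anti-LIF and 0 of 11 under combo lower, with list medians of 0.49 under anti-PD-1, 1.37 under anti-LIF and 1.48 under combo beside 0.12 under anti-PD-1, 0.072 under anti-LIF and 0.10 under combo over all genes. Of all genes in T cells, 6.86%, 9.33% and 8.53% were called higher in the same order, and 3.04%, 5.66% and 4.57% lower. Ccr2 was at 148 CPM in anti-PD-1, 213 CPM in anti-LIF, 232 CPM in combo and 55.7 CPM in control, and macrophages carry this gene too. Ccr8, a gene of tumour regulatory T cells, was at 7.1 CPM in anti-PD-1, 11.6 CPM in anti-LIF, 15.4 CPM in combo and 2.9 CPM in control. Ccr4 was at 2.48 CPM in anti-PD-1, 13.9 CPM in anti-LIF, 17.2 CPM in combo and 1.94 CPM in control, and Ccr6 at 6.74 CPM in anti-PD-1, 7.2 CPM in anti-LIF, 14.7 CPM in combo and 2.23 CPM in control. The share of T cells that were regulatory and the macrophage markers in the T cell class, both given above, were higher in the treated libraries too, and their part was not tested.

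Other chemokines differed by class. In macrophages the chemokine genes Ccl3, Ccl4 and Ccl5 were called lower in all 3 comparisons. Of the listed chemokine genes measured, 3 of 8 under anti-PD-1, 3 of 7 under anti-LIF and 3 of 8 under combo were called lower. Called higher were 1 of 8, 1 of 7 and 2 of 8 in the same order. Of all genes in macrophages, 2.8%, 5.28% and 6.2% were called lower and 7.17%, 9.33% and 8.85% higher. Ccl4 was at 298 CPM in anti-PD-1, 236 CPM in anti-LIF, 267 CPM in combo and 1267 CPM in control, Ccl5 at 209 CPM in anti-PD-1, 142 CPM in anti-LIF, 104 CPM in combo and 526 CPM in control, and Ccl3 at 331 CPM in anti-PD-1, 375 CPM in anti-LIF, 334 CPM in combo and 974 CPM in control. T cells also make these 3 chemokines, and the T cell markers of the macrophage class, given above, were highest in control. In endothelial cells Cxcl12, the ligand of CXCR4, was called higher, at 638 CPM in anti-PD-1, 609.8 CPM in anti-LIF, 758 CPM in combo and 229.6 CPM in control. Of the 6 chemokine genes measured there, Cxcl12 was the 1 called higher, and 3 of 6 under anti-PD-1, 2 of 6 under anti-LIF and 4 of 6 under combo were called lower. Of all genes in endothelial cells, 2.86%, 3.34% and 3.51% were called lower in the same order, and 6.07%, 7.77% and 7.54% higher. Ccl5 was at 41.4 CPM in anti-PD-1, 17.6 CPM in anti-LIF, 19.3 CPM in combo and 116 CPM in control. Ccl21a, which encodes a ligand of CCR7, was at 490.1 CPM in anti-PD-1, 442 CPM in anti-LIF, 232 CPM in combo and 689 CPM in control, called lower in combo. Ccl21a is a marker of lymphatic endothelial cells. Of endothelial cells, these were 16 of 396 in anti-PD-1, 33 of 932 in anti-LIF, 40 of 1118 in combo and 28 of 227 in control. The part of this make-up in the Ccl21a levels was not tested. The 7 T cell markers in the endothelial class summed to 57.9 CPM in anti-PD-1, 42.2 CPM in anti-LIF, 25.4 CPM in combo and 246 CPM in control, with 6 or 7 of them detected in a library, and their part was not tested. Ackr3, an atypical receptor that binds CXCL12 and CXCL11, was at 63.1 CPM in anti-PD-1, 55.3 CPM in anti-LIF, 48.3 CPM in combo and 128 CPM in control, called lower in each comparison. Among the genes that process the ligands, namely Adam10 and Adam17, which shed CXCL16, and Dpp4, which truncates CXCL10, the 1 call was Dpp4 in fibroblasts of anti-PD-1. Dpp4 there was at 30.5 CPM in anti-PD-1, 71.1 CPM in anti-LIF, 93.9 CPM in combo and 79.2 CPM in control. Of the 9 factors and tissue-residence genes, those called in T cells were 0 of 8 under anti-PD-1, 1 of 8 under anti-LIF and 0 of 8 under combo higher and 0 of 8 under anti-PD-1, 0 of 8 under anti-LIF and 0 of 8 under combo lower, the 1 call being Itgae, which encodes an integrin of resident T cells. With 9.33% of all genes called higher in T cells of anti-LIF, 1 of 8 is near that share.

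Across 45 combinations of 13 classes and 4 libraries with at least 50 cells each, Pearson's r of log2(CPM + 1) was 0.80 between Cxcl9 and Cxcl10, 0.66 between Cxcl9 and Cxcl16, and 0.70 between the receptors. Between a ligand and a receptor it ranged from -0.15 to 0.20. These points share libraries and classes, so the values are a description. Among 13426 genes with at least 200 UMIs, those most like Cxcl9 were Ifitm3 (0.805), Il18bp (0.796), Gm4951 (0.782), Fcgrt (0.776) and Sgk1 (0.774), with r in parentheses. Those most like Cxcl10 were Ifit1 (0.824), Ifitm3 (0.796), Oas2 (0.78), Pld2 (0.776) and Rtp4 (0.774), of which Ifit1, Ifitm3, Oas2 and Rtp4 are interferon-induced genes. Those most like Cxcl16 were Rab7b (0.845), Psap (0.837), Etv6 (0.837), Rtn1 (0.823) and Zmynd15 (0.821), of which Psap encodes a lysosomal protein. Among those most like Cxcr3 were Tnfrsf4 (0.866), Klrd1 (0.863), Tnfrsf18 (0.851) and Ptpn22 (0.845), of which Tnfrsf4 and Tnfrsf18 encode T cell costimulatory receptors. Those most like Cxcr6 were Lcn4 (0.898), Cd3d (0.894), Cd3e (0.88), Cd8a (0.877) and Bcl11b (0.873), of which Cd3d, Cd3e and Cd8a are T cell markers and the first and second of these served to gate the class.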

How the data were processed

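The authors deposited, for each library, a matrix of unnormalized UMI counts by gene and barcode. Other deposited content is the names of the barcodes and genes. Per the submitters' processing notes the build was mm10 and Seurat 4.0.3 was used. Which aligner and cell-calling rule produced the matrices is not given in the sources used here. Per the labels' protocols, libraries came from a SeekOne 3′ kit and 1 of a pair of sequencing platforms, without saying which library went on which, and removal of debris and dead cells was optional. Depth was 67503066 UMIs in 15191 barcodes in anti-PD-1, 57720774 in 15046 in anti-LIF, 94984486 in 17472 in combo and 111164731 in 20393 in control.

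Kept cells had 200 or more detected genes and no more than 20% of UMIs from mitochondrial genes. A cell took the class with the most detected markers if at least 2 were detected and the runner-up had at most 0.5 of that number. Cells with a closer runner-up were left out as mixed, and cells with fewer than 2 markers got no class. NK cells had to have no UMI of Cd3d, Cd3e, Cd3g or Trac. Cells with at least 2 gland epithelium markers were not counted as cancer cells. In cells with at least 2 cancer cell markers, fibroblast markers that Pan02 cells carry too, such as Dpt and Pdgfra, were set aside. This held where the other fibroblast markers numbered at most 0.5 of the cancer cell markers. No doublet caller was used. For each class and library, UMIs were added up and scaled to CPM, with exact Poisson intervals, shares with exact Clopper-Pearson intervals, and log2 ratios, with 0.5 counts added to each sum, with exact conditional intervals. A gene was called when past 2-fold with at least 20 UMIs in the 2 libraries together. Where a count was 0, the upper limit used 3 counts. The ratio and its interval were tried on simulated Poisson sums, which follow the model that the interval assumes. That trial cannot show how the interval does where a few cells hold much of a gene's UMIs. Of 32285 gene identifiers, 32158 were in the GENCODE M21 annotation. RefSeq promoters were found for 4 of the 5 members, all but Cxcl16. Named genes are all members in classes with at least 50 cells in a library, at most 4 genes of each list with the ratios farthest from 0 in a class, and the 5 genes most like each member, and some genes these rules name are not reported here. The members and lists were chosen with earlier results of these data known, and the gate rule, its markers and the exchange of class mix and levels were set after levels or marker detection by cluster were seen. Tools were python 3.11.15, numpy 2.4.6, scipy 1.17.1, pandas 2.3.3, scanpy 1.11.5, igraph 0.11.9 and matplotlib 3.10.9. Alternatives were classes from clusters, a stricter gate, the mean over cells, no 10 highest cells, scaling to the median gene, at most 10% mitochondrial UMIs, all barcodes, thinning to 1000 UMIs and a minimum of 100 UMIs.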

Additional observations from a re-analysis of the deposited data

Results flagged for a closer look

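Cxcl10 differed from control past 2-fold in opposite directions in different classes of the same library, and the difference between classes was not tested, since each group was 1 library. In anti-PD-1 the log2 ratio over control was 1.77 in dendritic cells, against -1.26 in macrophages, -1.70 in fibroblasts and -1.28 in cancer cells. The dendritic cell value rested on few cells, since 10 cells held 93.1% of these UMIs in anti-PD-1 and 84.7% in control. In anti-LIF it was 1.43 in T cells, against -1.43 in macrophages and -2.77 in cancer cells. In combo it was 1.30 in T cells and 1.74 in gland epithelium, against -1.75 in NK cells, -2.09 in macrophages and -2.81 in cancer cells. The NK cell value rested on 6 UMIs in combo and 37 in control. In T cells, 10 cells held 49.5% of the Cxcl10 UMIs in anti-LIF, 39.9% in combo and 21.3% in control.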

How the results depend on the processing

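Across 6 alternatives, 39 of 48 class-level ratios of the members over control kept their sign in all that gave a value, and of 21 past 2-fold, 12 were past it in all. No paired analysis was possible because each group was 1 library. Signs reversed for Cxcl10 in T cells of anti-PD-1 (-0.21 without the 10 highest cells), in endothelial cells of anti-LIF (-0.067 with classes from clusters, -0.29 as a mean over cells) and combo (0.051 at most 10% mitochondrial), and in fibroblasts of combo (0.049 as a mean over cells, 0.20 without the 10 highest cells). They also reversed for Cxcl9 in fibroblasts of combo (0.15 without the 10 highest cells) and for Cxcl10 over all cells of anti-LIF (0.23 as a mean over cells). Ratios whose interval included 0 also changed sign, namely Cxcl10 in dendritic cells of combo (0.47 with the stricter gate, 0.0024 as a mean over cells) and of anti-LIF (-0.023 at most 10% mitochondrial), Cxcl9 in fibroblasts of anti-PD-1 (0.16 as a mean over cells, 0.011 at most 10% mitochondrial) and Cxcr6 in T cells of anti-LIF (-0.023 without the 10 highest cells). The 9 ratios that lost their place past 2-fold were Cxcl10 in T cells of anti-LIF and combo, in dendritic cells and in fibroblasts of anti-PD-1, Cxcl9 in cancer cells and in endothelial cells of anti-PD-1, Cxcl16 in cancer cells of anti-LIF and combo, and Cxcr3 in T cells of combo, with values in the results. For Cxcl10 in cancer cells the mean over cells, no 10 highest cells, median-gene scaling and at most 10% mitochondrial gave -1.01, -1.65, -1.46 and -1.15 under anti-PD-1, -2.07, -3.66, -2.98 and -2.93 under anti-LIF, and -2.41, -3.89, -2.99 and -3.75 under combo. For Cxcl9 in macrophages clusters gave -0.59, -2.01 and -2.15 with PD-1 blocked, with LIF blocked and under both antibodies, and median-gene scaling -0.91, -2.36 and -2.44. No 10 highest cells gave -0.64 under anti-PD-1 and -2.46 under combo, at most 10% mitochondrial -0.65 and -2.15, and the stricter gate -2.44 in combo. For Cxcl16 in macrophages median-gene scaling gave -0.34 under anti-PD-1 and -0.81 under anti-LIF, and at most 10% mitochondrial -0.36, -0.98 and -0.96 in the order anti-PD-1, then anti-LIF, then combo. For Cxcr6 in T cells the mean over cells gave 0.64, 0.25 and 0.29, and median-gene scaling 0.40 in anti-PD-1. With at least 100 in place of 20 UMIs, genes past 2-fold in the same order were 429, 738 and 659 in T cells (1148, 1727 and 1525 with 20), 700, 1603 and 1270 in cancer cells (1296, 2417 and 2081), and 474, 778 and 868 in macrophages (1139, 1657 and 1784). The cause of these moves was not tested. Depth limits the receptors outside T cells and the small T cell subsets, where counts were often under 20 UMIs.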
